A study of Mus musculus with 12 samples.

Results

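Hearts of C57BL/6J mice were split by their RNA for Myl7, the regulatory myosin light chain of atrial muscle, and the genes that went with the split were described. The rule was a Myl7 level above or under 100 RPKM (a read number divided by the length of the gene and the size of the library). The hearts were thus chosen by their measured Myl7 level. The rule put 5 of 12 hearts above, here called Myl7-high hearts, and 7 under, called Myl7-low hearts. The study has a Control group of 6 mice and a CCL4 group of 6 mice. The CCL4 group was given carbon tetrachloride, a solvent toxic to the liver, to model cirrhosis, and the study asked what cirrhosis does to the heart. All mice were C57BL/6J, and the labels name no transgene. The tissue is labelled heart, and age, sex, dose, length of treatment and the region of the heart taken are not given in the labels. The Myl7-high hearts were Control replicates 1, 2, 3 and 5 and CCL4 replicate 4. The Myl7-low hearts were Control replicates 4 and 6 and CCL4 replicates 1, 2, 3, 5 and 6.

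The mammalian heart has 2 kinds of working muscle cell. Atrial myocytes carry the light chains Myl7 and Myl4, the calcium pump inhibitor sarcolipin (Sln) and the hormone precursor Nppa, which they store in granules and release when the atrial wall is stretched. Ventricular myocytes carry Myl2 and Myl3 in place of the atrial light chains. Fat lies on the outside of the mouse heart mainly around the groove between atria and ventricles and near the great vessels, and a sheet of mesothelium, the epicardium, covers the surface.

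The split was made on a measured value of the same libraries. All differences between the Myl7-high and the Myl7-low hearts below are therefore a description, with no test. They are the coefficient of the split on the log2(RPKM + 1) scale with treatment as a covariate, given with its standard error. A pseudocount of 1 understates the difference of genes at low levels. Only the comparison of CCL4 with Control was tested, since the rule did not use the treatment labels. In bulk tissue, fewer cells of a type and less RNA per cell cannot be told apart.

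The relative depth of the 12 libraries, in steps that 1 read adds to a gene's RPKM, ran from 26346878 to 63367417. It was 48325625 ± 12781233 in Myl7-high hearts (SD, n = 5) and 44487295 ± 8990021 in Myl7-low hearts (SD, n = 7). Across genes, r between any 2 libraries was 0.964 to 0.993, and no columns were identical. By the level of Xist RNA, Control replicates 2 and 5 and CCL4 replicates 2 and 5 were called male and the other hearts female. CCL4 replicates 3, 5 and 6 stood apart from the other hearts in matrix genes. Postn, a matrix protein of activated fibroblasts, was at 349.1, 104.0 and 150.6 RPKM there and between 6.78 and 25.4 RPKM in the other 9 hearts. These 3 hearts are all Myl7-low. Without them, 6.10% of all genes tested were higher in Myl7-high hearts with no overlap, against 0.812% in all 12 hearts, and counts without them are read beside that share.

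The promoters of 3 genes stand for the kinds of gene met below, each as the 250 bases before the RefSeq transcription start on GRCm38.p6. Myl7 defines the split, Mybphl separates with it and Nppa does not separate. Capitals mark the core site of the cardiac factor NKX2-5, AAGTG or CACTT on the other strand. They also mark 1 form of the GATA site, AGATAA or TTATCT, called the GATA letters here. The windows are chr11:5898783-5899032 on the minus strand for Myl7, chr3:108364661-108364910 on the plus strand for Mybphl and chr4:148000472-148000721 on the plus strand for Nppa.
Myl7: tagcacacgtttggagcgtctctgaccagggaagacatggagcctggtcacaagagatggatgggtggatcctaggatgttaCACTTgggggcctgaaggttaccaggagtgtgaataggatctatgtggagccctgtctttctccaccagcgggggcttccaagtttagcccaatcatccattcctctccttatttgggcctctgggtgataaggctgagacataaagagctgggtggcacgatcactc
Mybphl: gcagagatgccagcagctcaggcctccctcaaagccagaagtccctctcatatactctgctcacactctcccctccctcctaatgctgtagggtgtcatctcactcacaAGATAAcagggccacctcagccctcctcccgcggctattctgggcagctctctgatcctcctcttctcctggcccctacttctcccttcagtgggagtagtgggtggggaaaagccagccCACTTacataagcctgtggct
Nppa: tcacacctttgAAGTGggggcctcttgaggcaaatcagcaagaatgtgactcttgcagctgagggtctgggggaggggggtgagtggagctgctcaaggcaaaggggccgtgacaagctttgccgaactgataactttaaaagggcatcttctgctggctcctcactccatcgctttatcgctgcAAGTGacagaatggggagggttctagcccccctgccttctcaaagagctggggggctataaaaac
The NKX2-5 core occurs 1 time before Myl7, 1 time before Mybphl and 2 times before Nppa. The GATA letters occur 1 time before Mybphl and not in the other 2 windows. Letters that differ in the first base, TGATAA, stand unmarked in the Myl7 and Nppa windows and were not counted. A lack of GATA sites in those windows is thus not shown. Of 32851 promoter windows of this length, 40.7% hold the NKX2-5 core on either strand, 9.99% hold the GATA letters and 16.3% hold the T-box letters GGTGTG or CACACC. Of the 33 genes described next as higher in Myl7-high hearts, 20 had a promoter in the table. Among these 20, the NKX2-5 core was in 8, the GATA letters in 3 and the T-box letters in 5. These are matches of letters, and no binding was measured.

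Among 14414 genes with at least 0.5 RPKM in at least 5 libraries, 33 (0.229%) were higher in Myl7-high hearts by a coefficient of at least 1 with no overlap between the sets. No gene (0%) was lower by as much without overlap. Of the 33 genes, 9 were on a list of 21 atrial myocyte genes, 7 were on a list of 13 white adipocyte genes and 17 were on no list. The 33 and the 9 include Myl7, whose separation the rule fixed. Without a minimum on the coefficient, 117 genes (0.812%) were higher without overlap and 1 (0.00694%), the gene model Gm11196, was lower. Over all genes tested the median coefficient was 0.02 and 58.6% of coefficients were positive. The filter asks for as many libraries as there are Myl7-high hearts, so a gene present only there could pass. Of the 33 genes, 17 also reached 0.5 RPKM in at least 5 Myl7-low hearts, against 13323 of all 14414, and the counts support nothing about the lists.

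Myl7 (GRCm38 chr11:5896637-5898782) was at 419.2, 140.7, 180.6 and 178.7 RPKM in Control replicates 1, 2, 3 and 5 and at 306.6 RPKM in CCL4 replicate 4. In the Myl7-low hearts it was at 9.47 and 14.6 RPKM in Control replicates 4 and 6, and at 15.8, 18.0, 28.7, 8.84 and 0.811 RPKM in CCL4 replicates 1, 2, 3, 5 and 6. The heart just inside the threshold was Control replicate 2 and the heart just outside it was CCL4 replicate 3, and no heart lay between 28.7 and 140.7 RPKM. The coefficient was 4.33 ± 0.65 (SE).

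Myl4 (chr11:104550663-104595753), the essential light chain of atrial muscle, went with Myl7 in every heart. It was at 391.4, 102.7, 148.9, 172.0 and 305.8 RPKM in the Myl7-high hearts, in the order above. In the Myl7-low hearts it was at 10.2, 12.6, 14.0, 18.0, 33.1, 10.9 and 0.993 RPKM, again with CCL4 replicate 3 highest and CCL4 replicate 6 lowest. The ratio of Myl4 to Myl7 stayed between 0.730 and 1.23 over 12 hearts, a 1.69-fold range. Myl7 itself spanned 517-fold, and 47.4-fold without CCL4 replicate 6.

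Sln (chr9:53850164-53854560), the small protein that restrains the sarcoplasmic calcium pump in atria, was at 37.6, 7.87, 9.89, 10.5 and 21.7 RPKM in the Myl7-high hearts. It was at 0.740, 0.749, 1.06, 0.803, 1.75, 0.685 and 0.0605 RPKM in the Myl7-low hearts. The sets did not overlap (coefficient 3.28 ± 0.38 SE), and the ratio of Sln to Myl7 kept within a 2.01-fold range. Of 11 tested genes of calcium cycling, Sln was the only gene whose sets did not overlap, beside 0.812% of all genes tested. Atp2a2, the pump that sarcolipin inhibits, was at 156 to 274 RPKM in Myl7-high and 63.2 to 200 RPKM in Myl7-low hearts.

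Mybphl (chr3:108364911-108380057), a myosin-binding protein known from atria and conduction tissue, was at 56.3, 10.5, 16.2, 16.3 and 41.6 RPKM in the Myl7-high hearts and at 1.22, 0.714, 1.66, 1.96, 2.77, 1.29 and 0.172 RPKM in the Myl7-low hearts. Its coefficient was 3.71 ± 0.43 (SE), and its ratio to Myl7 spanned 4.34-fold, or 2.99-fold without CCL4 replicate 6. In these 4 genes CCL4 replicate 6 was the lowest of the 12 hearts.

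**Figure D1:**
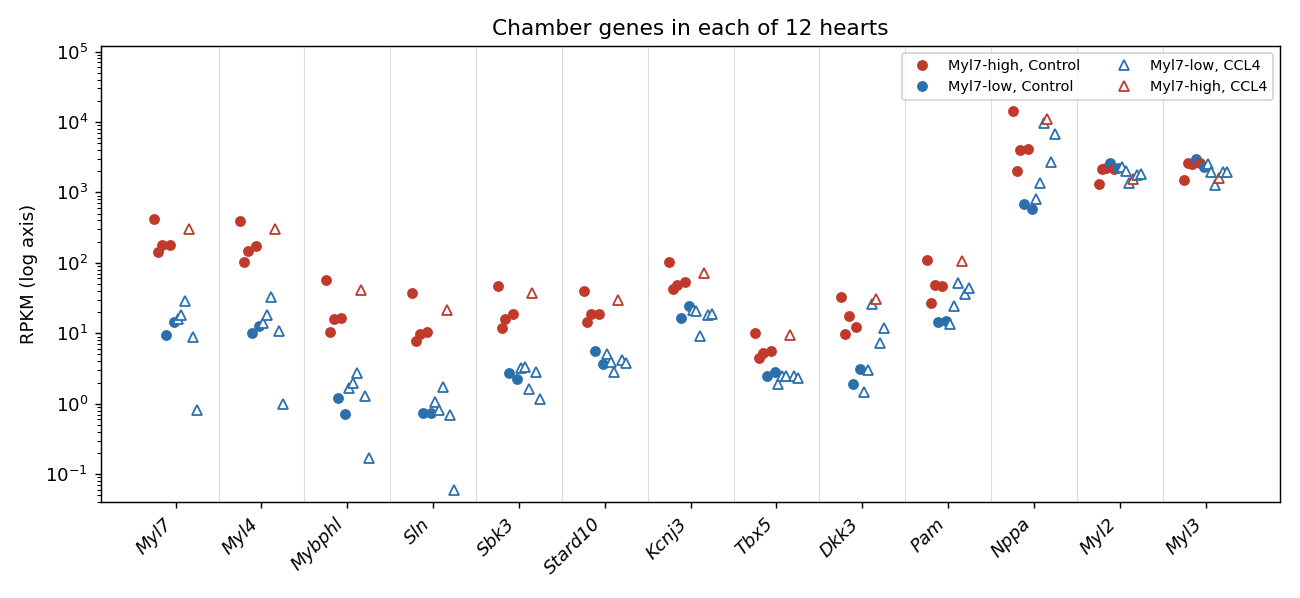
RPKM on a log axis (vertical) of atrial genes from Myl7 to Nppa and of the ventricular light chains Myl2 and Myl3 in each of 12 hearts. Each point is 1 heart, red for Myl7-high and blue for Myl7-low, with filled circles for Control and open triangles for CCL4. Red and blue points are apart from Myl7 to Tbx5 and mixed in Dkk3, Pam, Nppa, Myl2 and Myl3.

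Further genes separated the sets but varied less among the Myl7-low hearts than Myl7 did. Sbk3, a kinase gene on no list, was at 47.0, 11.9, 16.1, 19.0 and 36.8 RPKM in Myl7-high hearts and at 1.18 to 3.32 RPKM in Myl7-low hearts (coefficient 2.97 ± 0.35 SE). Its neighbour on chromosome 7, Sbk2, was at 2.26 to 9.92 against 0.409 to 0.854 RPKM (coefficient 2.09 ± 0.29 SE). Stard10, a lipid transfer protein, was at 14.6 to 40.2 against 2.78 to 5.54 RPKM (coefficient 2.26 ± 0.26 SE).

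Kcnj3 (chr2:55435970-55598145), a subunit of the potassium channel that acetylcholine opens in atrial cells, was at 102.7, 42.8, 48.7, 52.8 and 71.4 RPKM in Myl7-high hearts. It was at 16.7, 24.5, 21.3, 20.6, 9.14, 18.1 and 18.9 RPKM in Myl7-low hearts (coefficient 1.68 ± 0.28 SE). CCL4 replicate 6, which had 0.811 RPKM of Myl7, thus held Kcnj3 at the level of the other Myl7-low hearts, and the ratio of Kcnj3 to Myl7 spanned 100.3-fold with this heart and 8.78-fold without it. Kcnj5, the partner subunit, also separated, at 4.43 to 7.50 against 1.89 to 3.64 RPKM, with a coefficient of 0.74 ± 0.17 (SE).

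Tbx5 (chr5:119832668-119885219), a T-box factor that atria need, was at 10.2, 4.52, 5.32, 5.53 and 9.57 RPKM in Myl7-high hearts and at 1.89 to 2.81 RPKM in Myl7-low hearts (coefficient 1.24 ± 0.20 SE). Of 16 tested heart transcription factors it was the only gene whose sets did not overlap in all 12 hearts, beside 0.812% of all genes. Without CCL4 replicates 3, 5 and 6, 2 of 16 did not overlap, beside 6.10% of all genes. Nkx2-5 was at 3.49 to 3.86 against 2.54 to 4.12 RPKM and Gata4 at 2.73 to 4.18 against 2.08 to 3.84 RPKM, both overlapping.

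Of the 21 atrial genes, 19 passed the filter. In 11 of the 19 the sets did not overlap and all 11 were higher in Myl7-high hearts, beside 0.812% of all genes tested. The 11 include Myl7, whose separation the rule fixed. The median coefficient of the 19, Myl7 among them, was 1.74. Those of the 11 not yet named were the light chain Myl1, at 22.5 to 61.2 against 6.93 to 15.2 RPKM, and the connexin Gja5, at 0.99 to 1.65 against 0.505 to 0.831 RPKM. Without CCL4 replicates 3, 5 and 6 the sets did not overlap in 15 of the 19, again with Myl7 among them, beside 6.10% of all genes tested.

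Nppa (chr4:148000722-148002079), the precursor of atrial natriuretic peptide, did not separate the sets. It was at 14184, 2041, 3941, 4081 and 11077 RPKM in Myl7-high hearts. In Myl7-low hearts it was at 682 and 577 RPKM in the Control hearts and at 802, 1340, 9552, 2689 and 6675 RPKM in CCL4 replicates 1, 2, 3, 5 and 6. The 3 Myl7-low hearts with high Postn held more Nppa than the other 4 Myl7-low hearts, and CCL4 replicates 3 and 6 held more than 3 of the Myl7-high hearts. The coefficient was 2.53 ± 0.70 (SE). The antisense gene Gm13054 shares exons with Nppa and had the same order of hearts at its top, and since the strand setting of the counting is not given, their reads cannot be told apart.

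CCL4 replicate 6 shows how far the atrial genes could part. Its ratio of Nppa to Myl7 was 8230, against 14.5 to 36.1 in the Myl7-high hearts and 39.5 to 332.6 in the other Myl7-low hearts. Pam, the enzyme that amidates peptides and is abundant in the membrane of atrial granules, was at 27.3 to 108.6 RPKM in Myl7-high hearts. In Myl7-low hearts it was at 13.5 to 24.8 RPKM in the 4 hearts with low Postn and at 36.0 to 51.3 RPKM in CCL4 replicates 3, 5 and 6. Dkk3, a secreted protein rich in atria, was at 9.83 to 33.03 RPKM in Myl7-high hearts, 1.46 to 3.13 RPKM in the 4 Myl7-low hearts with low Postn and 7.21 to 26.4 RPKM in CCL4 replicates 3, 5 and 6. Whether the state of those 3 hearts accounts for the overlap was not tested.

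Of 8 tested genes of the natriuretic peptide system none separated the sets in all 12 hearts (median coefficient 0.33), and 5 of 8 did without CCL4 replicates 3, 5 and 6, beside 6.10% of all genes tested. Npr3, the receptor that clears natriuretic peptides, was at 4.08 to 15.9 against 2.73 to 4.65 RPKM (coefficient 1.12 ± 0.29 SE). Corin, the protease that activates the Nppa precursor, was at 6.11 to 8.17 against 3.64 to 6.53 RPKM. Nppb, which codes for the B-type peptide, was at 96.7 to 200.4 RPKM in Myl7-high hearts and 88.6 to 446.4 RPKM in Myl7-low hearts, with CCL4 replicate 3 highest.

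Bmp10 (chr6:87428994-87437677), a growth factor made mainly by the right atrium in the adult, was at 11.95, 0.953, 9.11, 0.0208 and 12.2 RPKM in Myl7-high hearts. In Myl7-low hearts it was at 1.11 RPKM in Control replicate 4, 0.168 RPKM in CCL4 replicate 2 and at or under 0.00925 RPKM in the other 5. Control replicates 3 and 5 had nearly the same Myl7, 180.6 and 178.7 RPKM, and yet Bmp10 was at 9.11 in the former and 0.0208 RPKM in the latter. The 5 Myl7-high hearts were thus unlike one another in this gene, 3 at 9.11 RPKM or more and 2 at 0.953 RPKM or less. By Xist the former 3 were called female and the latter 2 male. Of the Myl7-low hearts called female, Control replicate 4 was at 1.11 RPKM and the others at or under 0.00925 RPKM. The part of sex in Bmp10 was not tested. Among sinoatrial and conduction genes, Vsnl1, a calcium sensor, separated the sets at 0.507 to 1.65 against 0.0201 to 0.344 RPKM. The other 8 tested genes overlapped, and 0.812% of all genes tested were higher without overlap. Hcn4, the pacemaker channel, was at 0.839 to 1.45 against 0.591 to 1.29 RPKM.

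No ventricular gene was lower in every Myl7-high heart than in every Myl7-low heart. All 13 genes of the ventricular list passed the filter, none separated the sets and their median coefficient was -0.02. Myl2 (chr5:122100951-122113472), the ventricular regulatory light chain, was at 1312, 2130, 2189, 2141 and 1562 RPKM in Myl7-high hearts and at 2579, 2237, 2325, 2004, 1344, 1778 and 1843 RPKM in Myl7-low hearts. The 2 Myl7-high hearts with most Myl7, Control replicate 1 and CCL4 replicate 4, had less Myl2 than the other 3, but CCL4 replicate 3, with 28.7 RPKM of Myl7, was as low. The coefficient was -0.29 ± 0.18 (SE).

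Myl3, the ventricular essential light chain, was at 1487 to 2640 against 1274 to 3010 RPKM (coefficient -0.22 ± 0.21 SE). Irx4, a ventricular transcription factor, was at 4.67, 8.21, 8.82, 8.88 and 6.99 RPKM in Myl7-high hearts and at 7.68 to 10.7 RPKM in Myl7-low hearts. Control replicate 1 and CCL4 replicate 4, the 2 hearts with most Myl7, were thus under every Myl7-low heart, and the other 3 Myl7-high hearts were within their range. Phospholamban (Pln), which inhibits the calcium pump in ventricles, was at 178.3 to 288.8 against 133.9 to 260.0 RPKM. Myl2 was thus at 1312 RPKM or more in each of the 12 hearts, and each had more Myl2 than Myl7. The ratio of Myl2 to Myl7 ran from 3.13 in Control replicate 1 to 15.1 among Myl7-high hearts and from 46.8 to 2272 among Myl7-low hearts. The 13 tested sarcomere genes that both chambers use overlapped in all cases, with Myh6, the main myosin heavy chain, at 16038 to 17034 against 8991 to 17697 RPKM. By these markers all 12 hearts held RNA of ventricular muscle and differed in RNA of atrial muscle genes, and which piece of each heart was taken is not given.

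The white adipocyte list was the other list with several of the 33 genes. Of its 7 genes among the 33, 2 also reached 0.5 RPKM in at least 5 Myl7-low hearts, against 9 of the 9 atrial genes. Adipoq (chr16:23146536-23158028), the hormone adiponectin of fat cells, was at 8.11, 2.58, 3.72, 6.13 and 10.7 RPKM in Myl7-high hearts. It was at 0.610, 0.879, 0.930, 0.438, 0.842, 0.142 and 0.491 RPKM in Myl7-low hearts. CCL4 replicate 4 and Control replicate 1 were again highest, but Control replicate 5 came next, ahead of Control replicate 3, which had as much Myl7. The coefficient was 2.19 ± 0.29 (SE).

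Car3, a carbonic anhydrase abundant in fat cells, was at 17.1, 6.72, 6.50, 13.3 and 21.02 RPKM in Myl7-high hearts and 0.370 to 1.77 RPKM in Myl7-low hearts (coefficient 2.86 ± 0.31 SE). Cfd, the complement protease adipsin, was at 16.5, 6.18, 5.34, 11.7 and 16.0 against 0.425 to 1.35 RPKM (coefficient 2.62 ± 0.31 SE). Cidec, which enlarges lipid droplets, was at 2.47 to 7.48 against 0.148 to 0.537 RPKM. Plin1, the coat protein of the fat cell droplet, was at 1.17 to 2.70 against 0.0591 to 0.250 RPKM.

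Scd1 and Fasn, on the same list, code for enzymes of fatty acid synthesis. Scd1, the desaturase of stearic acid, was at 21.5, 6.49, 11.7, 12.1 and 47.5 RPKM in Myl7-high hearts and 1.98 to 4.47 RPKM in Myl7-low hearts (coefficient 2.60 ± 0.36 SE). Fasn, fatty acid synthase, was at 1.03 to 4.05 against 0.368 to 0.865 RPKM. Without CCL4 replicate 4 the Scd1 coefficient was 1.91.

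Of the 13 white adipocyte genes, 9 passed the filter. Of the 9, 7 were higher without overlap, beside 0.812% of all genes tested, and the median coefficient was 2.12. Only 2 of these 7 also reached 0.5 RPKM in at least 5 Myl7-low hearts. The filter thus shaped this count and median, which are a description. The sum of the 13 genes ran from 37.7 to 118.6 RPKM in Myl7-high and from 9.49 to 16.3 RPKM in Myl7-low hearts. Lep, Retn, Adig and Acvr1c did not pass the filter, being at or under 1.37 RPKM in every heart, and their sets did not overlap either. Lipe and Pparg, which heart muscle and vessels also express, overlapped, with coefficients of -0.02 and -0.01. Over 12 hearts the ratio of Cidec to Adipoq spanned 2.46-fold, that of Car3 to Adipoq 3.09-fold and that of Cfd to Adipoq 3.40-fold. The ratio of Adipoq to Myl7 spanned 37.7-fold with CCL4 replicate 6, which was highest, and 4.01-fold without it.

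Of 9 brown adipocyte genes 4 passed the filter, with a median coefficient of 0.11. Slc36a2, an amino acid transporter, was the 1 of the 4 that separated the sets, beside 0.812% of all genes tested. It was at 1.52 to 1.78 against 0.612 to 1.48 RPKM (coefficient 0.32 ± 0.11 SE). Ucp1, the uncoupling protein of brown fat, was at 0.0781, 0, 1.10, 1.25 and 0.993 RPKM in the Myl7-high hearts and at or under 0.0254 RPKM in the Myl7-low hearts. It was thus near 1 RPKM in Control replicates 3 and 5 and CCL4 replicate 4, and low or at 0 in Control replicate 1, where Adipoq was at 8.11 RPKM, and Control replicate 2, where it was at 2.58 RPKM. Ucp1 did not pass the filter. Cidea, which heart muscle also expresses, was at 13.6 to 29.5 against 11.2 to 25.6 RPKM.

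**Figure D2:**
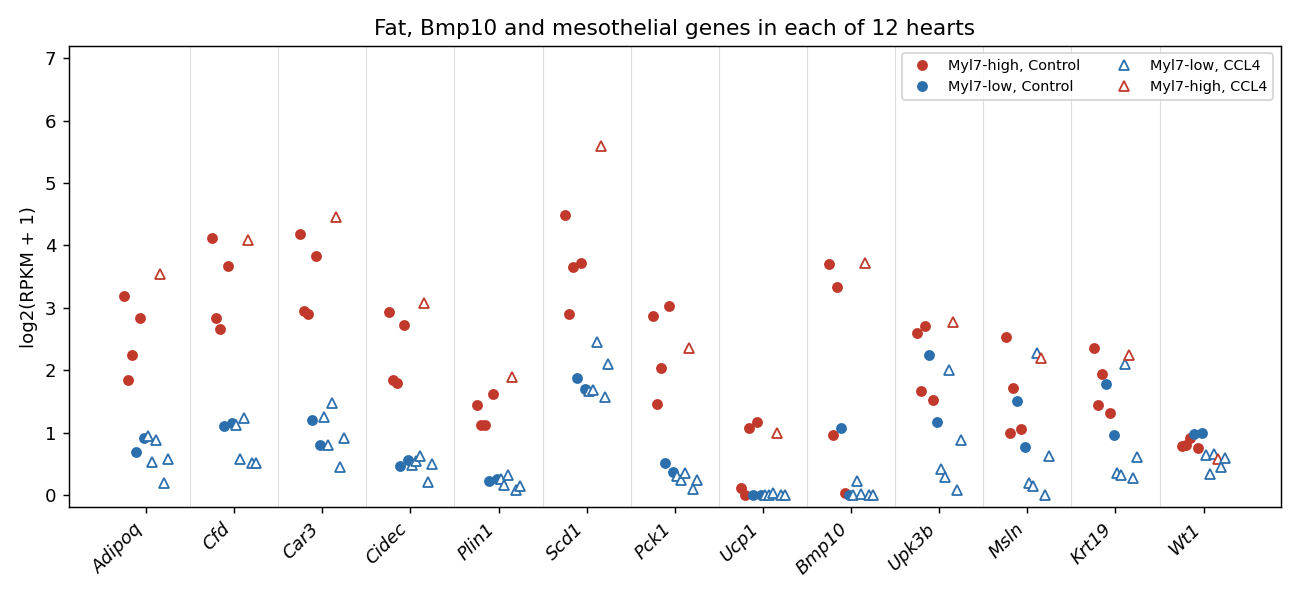
Levels as log2(RPKM + 1) (vertical) of white fat genes from Adipoq to Pck1, the brown fat gene Ucp1, Bmp10 and 4 mesothelial genes in each of 12 hearts. Each point is 1 heart, red for Myl7-high and blue for Myl7-low, with filled circles for Control and open triangles for CCL4. White fat genes keep the colours apart, Ucp1 and Bmp10 are high in 3 red hearts each, and blue points reach the red ones in the mesothelial genes.

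Mesothelial genes followed another order of hearts. Upk3b (chr5:136038496-136046487), a uroplakin of the mesothelial surface, was at 5.07, 2.19, 5.55, 1.88 and 5.80 RPKM in Myl7-high hearts and at 3.72, 1.25, 0.331, 0.214, 3.01, 0.0556 and 0.847 RPKM in Myl7-low hearts. Control replicate 4 and CCL4 replicate 3, both Myl7-low, were thus above Control replicates 2 and 5. The coefficient was 1.04 ± 0.45 (SE).

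Msln, mesothelin, was at 4.75, 0.982, 2.27, 1.08 and 3.60 RPKM in Myl7-high hearts and at 1.82, 0.700, 0.147, 0.107, 3.83, 0 and 0.547 RPKM in Myl7-low hearts, with Control replicate 4 and CCL4 replicate 3 again the highest of the Myl7-low hearts. Krt19, a keratin of simple epithelia, had the same pair on top at 2.43 and 3.30 RPKM, against 1.48 to 4.10 RPKM in Myl7-high hearts. Wt1, the epicardial transcription factor, was at 0.489 to 0.874 against 0.256 to 0.98 RPKM. Of 10 tested mesothelial genes 9 had positive coefficients (median 0.64), beside 58.6% of all genes tested, and none separated the sets. None did without CCL4 replicates 3, 5 and 6 either. In Upk3b and Msln the hearts called male by Xist, replicates 2 and 5 of each group, were the lowest of their set. In Wt1 the lowest Myl7-high heart was CCL4 replicate 4, called female. The part of sex in these genes was not tested. Without Control replicate 1 and CCL4 replicate 4 the coefficient of Upk3b was 0.27.

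**Figure D3:**
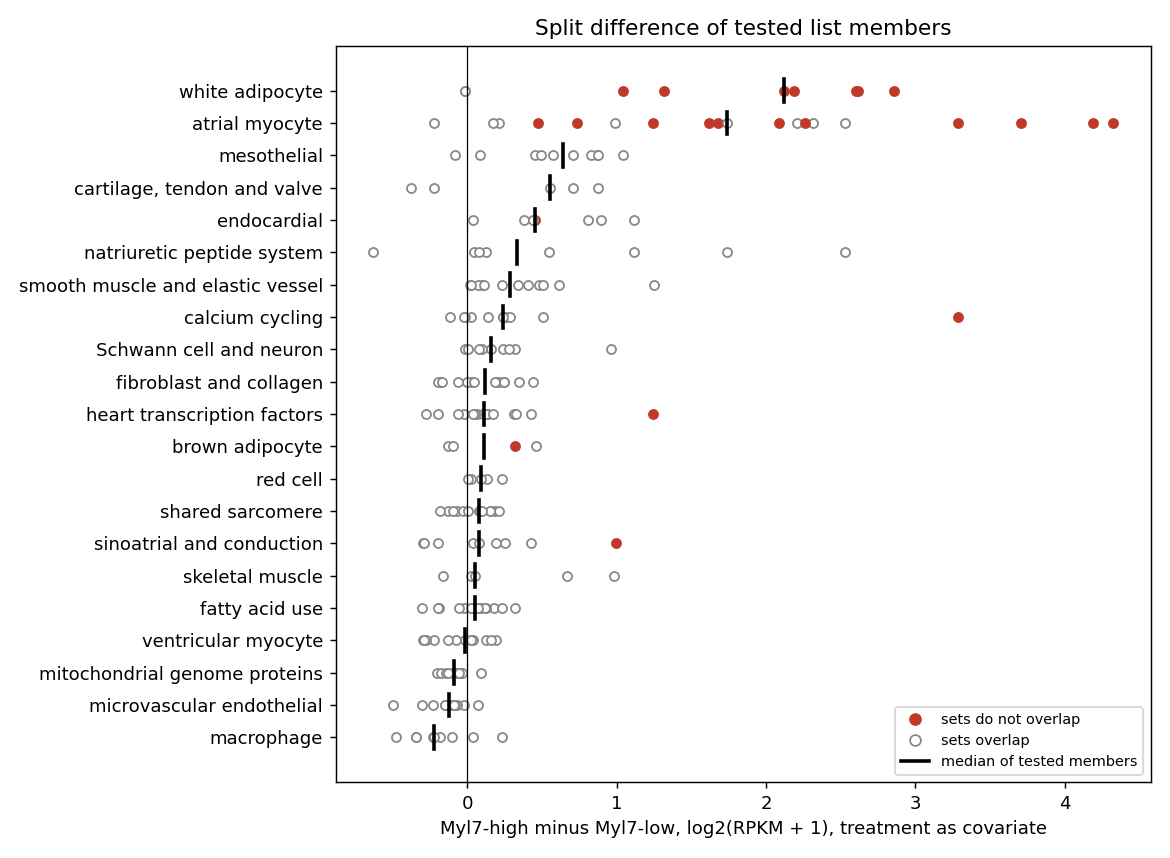
Split difference of every tested member of each gene list with at least 3 tested members, as Myl7-high minus Myl7-low in log2(RPKM + 1) with treatment as a covariate (horizontal), by list (vertical). Filled red points are genes whose sets do not overlap, open points overlap and the black bar is the list median. Outside the atrial and white adipocyte lists, whose medians are 1.74 and 2.12, the red points are Vsnl1, Slc36a2 and Tmem100, and Sln and Tbx5 shown again in their other lists. The atrial list holds Myl7, which the rule used. The filter could admit genes present only in Myl7-high hearts, so the medians are a description.

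Vessel, valve and lining genes differed less. Of 7 endocardial genes all coefficients were positive (median 0.45), beside 58.6% of all genes tested. Only Tmem100 separated the sets, at 5.19 to 7.53 against 3.28 to 4.92 RPKM, beside 0.812% of all genes tested. Cytl1, a secreted protein, was at 21.5, 7.92, 10.5, 8.35 and 11.5 against 4.13 to 8.26 RPKM, where CCL4 replicate 3 alone reached into the Myl7-high range. Of 12 smooth muscle and elastic vessel genes all coefficients were positive (median 0.29), beside the same 58.6%, and none separated. Cnn1, calponin of smooth muscle, was at 1.64 to 6.53 against 0.868 to 3.29 RPKM. Without CCL4 replicates 3, 5 and 6, 4 of 7 endocardial and 3 of 12 smooth muscle genes did not overlap, beside 6.10% of all genes tested.

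Of 12 microvascular endothelial genes none separated the sets and 11 had negative coefficients (median -0.12), where 58.6% of all genes tested had positive ones. Kdr, the receptor for vascular endothelial growth factor, was at 13.0 to 33.4 against 13.2 to 39.4 RPKM (coefficient -0.50 ± 0.19 SE). That sign rested on the covariate, since without treatment in the fit the coefficient of Kdr was 0.01. Fibroblast and collagen genes (14 tested, median 0.12), macrophage genes (9, median -0.22), fatty acid genes (15, median 0.05) and red cell genes (5, median 0.09) had no gene that separated the sets in all 12 hearts. The same held for cartilage, tendon and valve genes (5 tested, median 0.56), Schwann cell and neuron genes (9, median 0.16) and the protein genes of the mitochondrial genome (13, median -0.09). Without CCL4 replicates 3, 5 and 6, the sets did not overlap in 3 of the 5 cartilage, tendon and valve genes, 2 of the 9 Schwann cell and neuron genes and 1 of the 14 fibroblast and collagen genes, beside 6.10% of all genes tested.

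Lung, thymus and lymphoid markers were low in both sets. Of the lung list no gene passed the filter and the summed level was at most 0.807 RPKM in any heart. The summed level of the thymus and lymphoid list was 1.20 to 2.76 against 0.839 to 4.01 RPKM, and Rag1 was at or under 0.00671 RPKM. The summed level of the skeletal muscle list, which holds Ckm and Acta1, genes that heart muscle also expresses, was 190.9 to 276.6 against 123.1 to 266.1 RPKM. Of its 5 genes that passed the filter none separated the sets, and Myh1, Myh2 and Myh4 were at or under 0.103 RPKM. The immunoglobulin light chain Igkc was at 36.3 RPKM in CCL4 replicate 4, at 10.7 RPKM in Control replicate 1 and at 1.33 to 3.86 RPKM in the other 10 hearts. Those are the 2 hearts with most Myl7, and the part of lymphoid cells in the split was not tested. Of 6 plasma cell genes 2, Igkc and Ighm, passed the filter, and both overlapped (median coefficient 1.34).

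Of the 17 genes on no list, Sbk3, Hamp, Cyp2e1 and Pck1 are named for the size of their coefficient, and the others below were chosen after their values were seen. Hamp, the iron hormone hepcidin, which heart muscle also makes, was at 13.9, 4.11, 4.68, 2.05 and 10.04 RPKM in Myl7-high hearts. It was at 0 in Control replicate 6 and 0.0973 to 1.72 RPKM in the other Myl7-low hearts (coefficient 2.58 ± 0.37 SE). Cyp2e1, the cytochrome that turns carbon tetrachloride into a radical in the liver, was at 10.5, 3.94, 1.83, 4.77 and 9.92 against 0.390 to 0.905 RPKM (coefficient 2.14 ± 0.31 SE). Pck1, the enzyme of glycerol and glucose synthesis in fat and liver, was at 6.27, 1.74, 3.11, 7.16 and 4.14 against 0.0686 to 0.427 RPKM (coefficient 1.99 ± 0.25 SE), with Control replicate 5 highest.

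Haptoglobin (Hp), a plasma protein of liver and fat, was at 5.52, 2.79, 1.53, 5.29 and 5.17 against 0.0628 to 1.14 RPKM. Albumin (Alb), the defining liver transcript, was at or under 0.187 RPKM in every heart, and of 8 liver genes 2 passed the filter and neither separated the sets in all 12 hearts. Without CCL4 replicates 3, 5 and 6, 1 of these 2 was higher and 1 lower in Myl7-high hearts with no overlap. Of all genes tested, 6.10% were higher and 0.0694% lower in that setting, and 2 genes are too few to read against these shares. Fgf12, an intracellular modulator of sodium channels, was at 5.56, 1.27, 2.27, 2.58 and 4.74 against 0.0390 to 0.556 RPKM. Mlana, known from pigment cells, was at 5.81, 2.19, 3.08, 1.57 and 4.53 against 0.0809 to 1.23 RPKM. Rxfp1, the relaxin receptor, was at 1.11 to 4.29 against 0.137 to 0.4999 RPKM. Angpt1, a ligand of the endothelial receptor Tek, was at 3.77 to 8.29 against 1.80 to 3.61 RPKM. Ppp1r1b, at 1.86 to 3.82 against 0.0136 to 0.270 RPKM, shares exons with 1700003D09Rik, and both counted among the 33.

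Of the 33 genes, 21 were highest in Control replicate 1, 11 in CCL4 replicate 4 and 1 in Control replicate 5. The choice of genes without overlap fixes their direction within each treatment group, so only sizes are given. The difference was at least 1 on the log2(RPKM + 1) scale in 28 of the 33 genes within the Control group and in 33 within the CCL4 group, where CCL4 replicate 4 alone is Myl7-high. A further 29 genes had a coefficient of at least 1 but overlapped, Nppa, Pam, Dkk3, Bmp10, Npr3, Upk3b and Cnn1 among them. Coefficients of -1 or less were found for Gm27733, Gm27927 and the small nucleolar RNA Snord80, whose sets overlapped.

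The split fell unevenly over the treatment groups. Of 6 Control hearts 4 were Myl7-high, and of 6 CCL4 hearts 1 was. That difference did not pass Fisher's exact test (two-sided, p = 0.242). Myl7 itself was lower in CCL4 than in Control hearts by a mean difference of -2.10 on the log2(RPKM + 1) scale, and an exact two-sided permutation test over 924 splits gave p = 0.158 (n = 6 and 6). Without CCL4 replicate 4, the Myl7-high heart of that group, the difference was -2.89 and the exact permutation p was 0.0411. That heart was set apart by its Myl7 level, the value tested, so this p supports nothing.

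In the limma fit of CCL4 against Control without the split, no gene of 14414 (0%) passed an adjusted p of 0.05, and 1465 genes had an unadjusted p under 0.05. With the split as a term none (0%) passed and 1296 had an unadjusted p under 0.05. In the 7 Myl7-low hearts alone none (0%) passed and 705 had an unadjusted limma p under 0.05. Chance alone gives about 1 in 20 of the 14414 genes at that threshold, and 705 is no more than that. The smallest adjusted p in these limma fits was 0.0733, 0.128 and 0.854. Between the fits without and with the split, 948 genes with an unadjusted p under 0.05 were shared, 517 were found only without it and 348 only with it. None of these treatment fits gave a call, so the differences below are estimates. Without Control replicate 1 the limma fit without the split called 6 genes higher and 27 lower in CCL4, and without CCL4 replicate 1 it called 9 higher and 42 lower.

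All 33 genes that separated the sets were lower in CCL4 by estimate without the split term, with a median of -0.70, and 3 of 33 were lower with it, with a median of 0.24. Genes chosen as higher in Myl7-high hearts, which are mostly Control hearts, lean this way by their choice when the term is left out, so these values are a description. In the Myl7-low hearts their median difference was -0.03. Over all genes the median was -0.05 without the term and -0.03 with it. The atrial list went from a median of -0.50 to 0.21, the white adipocyte list from -0.55 to 0.24 and the smooth muscle list from -0.20 to 0.04. The mesothelial list had a median of -0.35 without the term, -0.06 with it and -0.33 in the Myl7-low hearts. Upk3b was at -0.91 ± 0.44 (SE) without the term, -0.39 ± 0.44 with it and -0.97 ± 0.49 in the Myl7-low hearts, and no limma adjusted p passed.

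For Nppa the CCL4 minus Control difference was 0.58 ± 0.82 (SE) without the split, 1.85 ± 0.69 with it and 2.18 ± 0.85 in the Myl7-low hearts. The limma adjusted p was 0.857 without and 0.424 with the split, and it did not pass in the Myl7-low hearts either. Among Myl7-low hearts the 5 CCL4 hearts, at 802 to 9552 RPKM, all held more Nppa than the 2 Control hearts, at 577 and 682 RPKM. Pam went from 0.16 ± 0.51 without the split to 1.03 ± 0.39 with it (limma adjusted p 0.945 and 0.424). For Nppb, whose split coefficient was negative, the difference was 0.07 ± 0.35 without the split and -0.24 ± 0.38 with it.

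Other lists are given with their treatment estimates from both fits. The sinoatrial and conduction list had medians of 0.00 without and 0.13 with the split term, the Schwann cell and neuron list -0.10 and 0.04, the skeletal muscle list -0.35 and -0.21 and the heart transcription factors 0.02 and 0.10. The 12 microvascular endothelial genes were all lower in CCL4 by estimate, with a median of -0.36 without and -0.42 with the split term. Kdr was at -0.73 ± 0.19 (SE) without and -0.98 ± 0.18 with the term (limma adjusted p 0.227 and 0.128). The 15 fatty acid genes were all lower by estimate, with medians of -0.45 and -0.48. Estimates leaned lower over all genes too, with medians of -0.05 and -0.03. Of the genes with an unadjusted limma p under 0.05, 1230 were lower and 235 higher without the term, and 1020 and 276 with it. The share of all genes lower by estimate is not given, so all-lower lists are not shown to be particular. The 14 fibroblast and collagen genes had medians of 0.82 and 0.93. Among genes with the smallest p, Btnl9, a butyrophilin of endothelial cells, was at -0.71 ± 0.17 without and -0.97 ± 0.15 with the split term (limma adjusted p 0.197 and 0.128). Sphk2, a sphingosine kinase, was at 0.65 ± 0.12 and 0.72 ± 0.14, and Dbp, a clock-driven transcription factor, at 0.63 ± 0.13 and 0.72 ± 0.15.

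**Figure D4:**
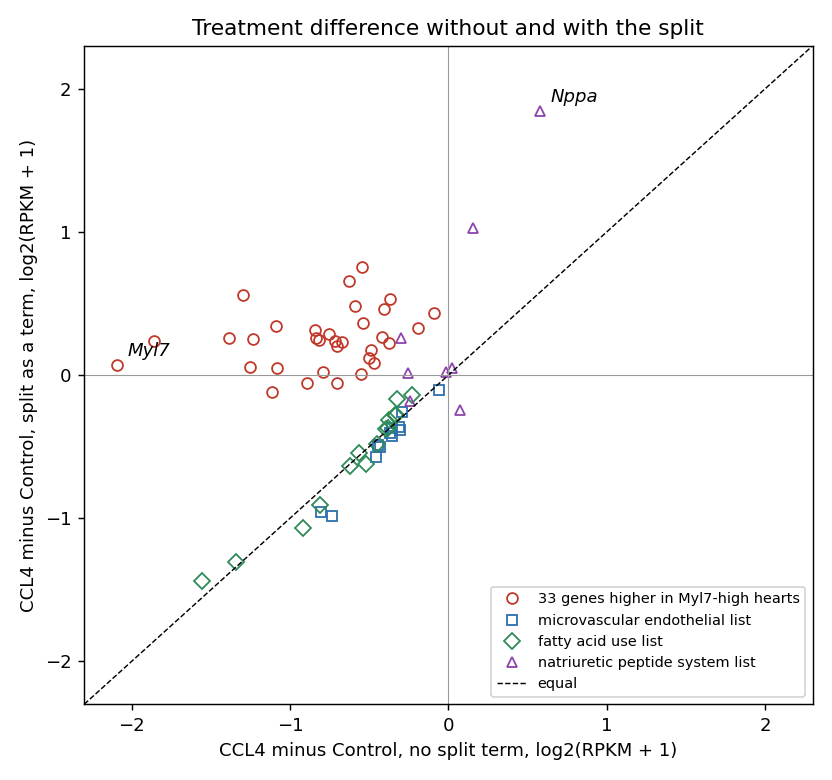
CCL4 minus Control in log2(RPKM + 1) without the split term (horizontal) and with it (vertical), 1 point per gene, for the 33 genes higher in Myl7-high hearts and 3 gene lists, with a dashed line of equality. The 33 genes lie left of 0 and 30 of them lie above 0 on the vertical axis, Nppa moves from 0.58 to 1.85, and the endothelial and fatty acid lists lie near the line.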

How the data were processed

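RNA of 12 mouse hearts was extracted with TRIzol and made into stranded mRNA libraries, per the labels' protocols. Trimmomatic 0.36, featureCounts of Subread 1.5.1 and GRCm38 were used, per the submitters' processing notes. Which aligner, annotation release and strand setting were used is not given in the sources used here. RPKM were deposited by the authors for 31722 gene symbols, 1 column per heart, and these values are not counts. Each title gave the group and the replicate number, and the 6 mice of each group are separate animals.

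Genes with at least 0.5 RPKM in at least 5 libraries (14414) were fitted on log2(RPKM + 1) by lmFit and eBayes with trend, from limma 3.58.1 (R 4.3.3). The split coefficient had treatment as a covariate and is given without p. CCL4 against Control was fitted without the split, with it and in the 7 Myl7-low hearts, with Benjamini-Hochberg adjustment over all genes. The members, gene lists and thresholds were chosen with earlier results of these data known, and 2 short lists (liver, plasma cell) and 2 alternatives were added after seeing the data. Named genes were the 15 with the largest coefficient among those counted, up to 4 per list, 9 fixed chamber genes and the 5 with the smallest p per direction in each treatment fit, from which the text names some. Other genes were named after their values were seen.

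Depth is relative: RPKM multiplied by exon length in GENCODE M21 (95.4% of symbols matched) gave whole steps within 0.05 for 92.6% to 93.9% of low values, where 10% would by chance. Coordinates are 1-based on GRCm38 from GENCODE M21, and promoter sequences are from RefSeq. The scripts were tested on simulated data. Python 3.11.15, pandas 2.3.3, scipy 1.17.1 and matplotlib 3.10.9 were used. Alternatives covered the pseudocount, filter, scaling, covariate, replicate block and libraries left out.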

Additional observations from a re-analysis of the deposited data

Results flagged for a closer look

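Within each set, 91 genes were checked for a heart far from the others (182 sets of values), and 12 stood out by Dixon's criterion at the 95% level, where chance alone gives about 1 in 20. All 12 were in Myl7-low hearts. In CCL4 replicate 6, Myl7 at 0.811 RPKM and Myl4 at 0.993 RPKM lay far under the other 6 hearts. In CCL4 replicate 5, the lipid droplet gene Cidec at 0.148 RPKM was far under the others.

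In CCL4 replicate 3, which had the highest Postn of all hearts, the other 9 stood out. Low there were the myosin heavy chain Myh6 at 8991 RPKM, creatine kinase Ckm at 70.1 RPKM, the acyl-CoA synthetase Acsl1 at 3.49 RPKM and Pln at 133.9 RPKM. High there were Myh7, the slow myosin heavy chain, at 462.4 RPKM, Cnn1 at 3.29 RPKM, the cartilage matrix gene Chad at 2.35 RPKM, neuropeptide Npy at 0.660 RPKM and the troponin Tnnt3 at 4.58 RPKM.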

How the results depend on the processing

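The 33 genes higher in Myl7-high hearts became 56 with a pseudocount of 0.1, 58 in Control hearts alone (with 3 lower) and 59 without CCL4 replicates 3, 5 and 6. Leaving out 1 library at a time gave 28 to 40 genes higher and 0 lower. No covariate gave 31 genes, Myl7 as a continuous term 29, Control replicate 1 and CCL4 replicate 4 left out 23, and a term for sex by Xist 35. Under 3 other scalings the median coefficient of all genes lay between -0.01 and 0.07. Treatment calls without the split were 0 to 9 higher and 0 to 42 lower with 1 library left out, and with the split 0 to 1 higher and 0 to 12 lower. Without CCL4 replicate 1 the fit with the split called 3 lower. Without Control replicate 1 and CCL4 replicate 4 the fit without the split called 1 higher. With no filter the Myl7-low hearts gave 6 genes lower in CCL4. The Myl7 difference by treatment ran from -2.89 to -1.41 with 1 library left out, with exact permutation p of 0.0411 (without CCL4 replicate 4) to 0.288, and the former leaves out the heart that its Myl7 level set apart. The cause of these changes was not tested. Same-number correlations between the groups ran from -0.47 to 0.22. They were not set against different-number correlations, so they cannot decide whether replicate numbers pair the hearts. With the replicate block the split gave 33 genes higher, both treatment fits gave 0 calls in each direction, and the Myl7 difference was -2.10 with an exact sign-flip permutation p of 0.219. No paired analysis was possible in the Myl7-low hearts because they share only number 6. Of 2592 values of single genes under the alternatives, 56 moved beyond the replicate spread and 0 called values reversed. Called genes do not overlap, which fixes their sign when libraries are left out or the pseudocount or filter changes. The 0 thus supports little. Depth limits genes well under 1 RPKM, such as Ucp1 in the Myl7-low hearts. Ucp1 missed the filter because it reached 0.5 RPKM in fewer than 5 hearts.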

Other observations

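Genes that separated the sets with coefficients under 1 numbered 84, and some of them were chosen for mention after their values were seen. Maob, a monoamine oxidase of the mitochondrial membrane, was at 4.26 to 7.29 RPKM in Myl7-high hearts and 2.12 to 3.65 RPKM in Myl7-low hearts (coefficient 0.85 ± 0.14 SE). Gpd1, which makes glycerol phosphate, was at 4.69 to 9.26 against 2.89 to 4.18 RPKM (0.81 ± 0.16 SE), and Lgals12, a galectin of fat cells, at 0.585 to 1.72 against 0.0141 to 0.168 RPKM (0.98 ± 0.12 SE). Dsg2, the desmosomal cadherin of heart muscle, was at 6.70 to 7.37 against 3.19 to 5.54 RPKM (0.44 ± 0.12 SE), and Nudt4, a diphosphoinositol phosphatase, at 48.6 to 62.5 against 28.2 to 43.1 RPKM (0.54 ± 0.13 SE).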
